A study of Homo sapiens with 6 samples.

Results

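The genes described here are 10 genes of the circadian clock, CLOCK, PER1, PER2, PER3, CRY1, CRY2, NR1D1, NR1D2, BHLHE40 and DBP, chosen by gene symbol from a table of 12793 rows of RNA levels. All 10 symbols had 1 row each. RNA was measured in HCT15 cells, a long-established line from a human colorectal cancer. In 3 libraries the cells carried an RBM15 knockout made by CRISPR/Cas9, a guide-directed DNA nuclease, and in the other 3 libraries they carried a control guide and were labelled wild type for RBM15. RBM15 binds RNA and belongs to the enzyme complex behind the m6A mark. The cells of all 6 libraries were grown in RPMI-1640 with serum and antibiotics. Not given in the sources used here were the guide's position, whether the knockout cells were a single clone or a pool, the hour of harvest and any step that sets the phase of the clock. Levels are FPKM, fragments counted per kilobase of transcript and scaled to the fragments mapped in the library. They are given as mean ± SD of 3 libraries per group, and the read depth behind them is unknown. The labels do not tie the 3 libraries of a group to separate cultures. The p-values therefore reflect the spread among these libraries alone, and that spread could be technical.

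RBM15 mRNA was higher in the knockout-labelled libraries, at 17.3, 18.5 and 18.03 FPKM, against 5.97, 5.89 and 5.51 FPKM in the control libraries. The mRNA of the targeted gene was thus higher, not lower, under the knockout label. An mRNA level alone cannot tell whether the label is right, and RBM15 protein was not analysed here. Below, "rose" and "fell" describe the knockout-labelled libraries relative to the control libraries, and their direction rests on the labels alone. Of 12 markers of colorectal epithelium, 8 had rows, and their summed level was 3486 to 3626 FPKM in the knockout-labelled libraries and 3809 to 3903 FPKM in the control libraries. KRT20, CDX1, CEACAM5 and LGALS4 were not analysed here. The sum is weighted to the most abundant markers, KRT8 and KRT18. The intestinal genes VIL1 and CDX2 fell most. VIL1 stood at 3.87 ± 0.222 FPKM in the knockout-labelled libraries against 16.98 ± 0.1675 FPKM in the control libraries. CDX2 stood at 9.52 ± 0.254 FPKM in the knockout-labelled libraries against 20.9 ± 0.138 FPKM in the control libraries. EPCAM, KRT19, KRT18 and HNF4A also fell, as did 29.2% of all genes tested. KRT8 rose, at 1391 ± 55.5 FPKM in the knockout-labelled libraries against 1292 ± 19.95 FPKM in the control libraries, and CDH1 did not pass the test. Of 10 fibroblast markers only COL1A1 had a row, with 0.835 to 1.41 FPKM in the knockout-labelled libraries and 0.917 to 1.41 FPKM in the control libraries. Of 12 blood and endothelial markers only CD68, CD14 and CD8A had rows, with a sum of 10.5 to 12.8 FPKM in the knockout-labelled libraries against 7.19 to 7.89 FPKM in the control libraries. Of these 3 genes CD68, which encodes a lysosomal protein, was the one that rose, at 6.68 ± 0.632 FPKM in the knockout-labelled libraries and 2.91 ± 0.216 FPKM in the control libraries. The part of these shifts in the clock gene results was not tested.

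The circadian clock is a feedback loop of transcription that runs in most cells of the body, intestinal epithelium included. CLOCK pairs with BMAL1 to switch on genes that carry E-box sequences, among them the PER, CRY, NR1D and DBP genes. PER and CRY proteins then enter the nucleus and block the CLOCK and BMAL1 pair, while the nuclear receptors NR1D1 and NR1D2 (REV-ERB alpha and beta) hold down BMAL1 and CRY1 and compete with the activating ROR receptors. DBP carries the rhythm to output genes through D-box sequences. In a culture whose cells are out of step with each other, a bulk RNA level averages over all phases of the loop.

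Matches to short motifs that clock and signalling factors can bind are shown first. RefSeq promoter windows on GRCh38.p14, from 250 bases before to 50 bases after each start site, were found for all 10 genes, 14 windows in all because some genes have more than 1. Each window was searched on both strands. The E-box CACGTG was found near PER1, NR1D2 and BHLHE40, that is in 3 of the 14 windows, and in 7.26% of all 35116 windows. The related E-prime box CACGTT was found near CLOCK, PER2, CRY1, CRY2 and NR1D1, in 5 of the 14 windows and in 5.34% of all windows. The D-box, searched as TTANGTAA, was found near PER2, PER3 and NR1D2, in 3 of the 14 windows and in 2.18% of all windows. The nuclear receptor half-site AGGTCA, through which ROR and NR1D receptors bind, was found near PER1 and CRY2. It was in 3 of the 14 windows and in 13.8% of all windows. The cyclic AMP response element TGACGTCA was found near 0 of the 10 genes, in 0 of the 14 windows and in 1.85% of all windows. No hits of different motifs overlapped, and the window of DBP held none of these 5 motifs. The stretches below run 5′ to 3′ on the strand of the gene and carry the motif in capitals. It is the E-box in PER1 and NR1D2, the E-prime box in CLOCK, PER2 and NR1D1, and the D-box in PER3. In NR1D1 the motif reads on the opposite strand. Each stretch lies upstream of the start site of its own window and outside exons of GENCODE 29. Those of CLOCK, PER1, PER2 and NR1D2 still lie within the gene's GENCODE 29 span, which begins further upstream.
CLOCK, chr4:55546094-55546139, minus strand: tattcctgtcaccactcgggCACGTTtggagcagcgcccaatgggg
PER1, chr17:8152552-8152597, minus strand: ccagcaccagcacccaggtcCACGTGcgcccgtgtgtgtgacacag
PER2, chr2:238288782-238288827, minus strand: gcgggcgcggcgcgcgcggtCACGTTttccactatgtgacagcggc
PER3, chr1:7784094-7784141, plus strand: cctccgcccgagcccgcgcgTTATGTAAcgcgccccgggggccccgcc
NR1D1, chr17:40100732-40100777, minus strand: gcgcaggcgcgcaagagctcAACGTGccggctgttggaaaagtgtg
NR1D2, chr3:23945946-23946041, plus strand: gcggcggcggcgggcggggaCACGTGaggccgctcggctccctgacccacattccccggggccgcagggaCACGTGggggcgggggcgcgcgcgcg
NR1D2 is the only one of the 10 with a pair of E-boxes in its window, which begin at positions -155 and -105 from the start site of that window. A match describes the letters of the window and is not a measured binding site.

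Of the 10 clock genes, 2 rose (CLOCK and CRY1), 3 fell (NR1D1, NR1D2 and DBP) and 5 did not pass the test (PER1, PER2, PER3, CRY2 and BHLHE40). All 10 passed the filter of a mean of at least 1 FPKM. Calls are from limma on log2(FPKM + 1), with Benjamini-Hochberg adjustment over all 11451 genes tested and a threshold of 0.05. Among all genes tested 54.5% changed, 25.3% higher and 29.2% lower, so 5 of 10 clock genes is near the share of any gene and is no result about the clock as a set. Of the 10, DBP alone was lower by 1 or more on the log2 scale and 0 were higher by as much, beside 1.41% and 0.376% of all genes tested. The groups did not overlap for 6 of the 10 genes, and for 63% of all genes tested. The median log2 difference of the 10 genes was -0.06, beside -0.02 over all genes tested. What follows is therefore an account of each gene and of how the arms of the loop differed in level. In these bulk samples, fewer cells that express a gene and less of its RNA per cell cannot be told apart.

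**Figure D1:**
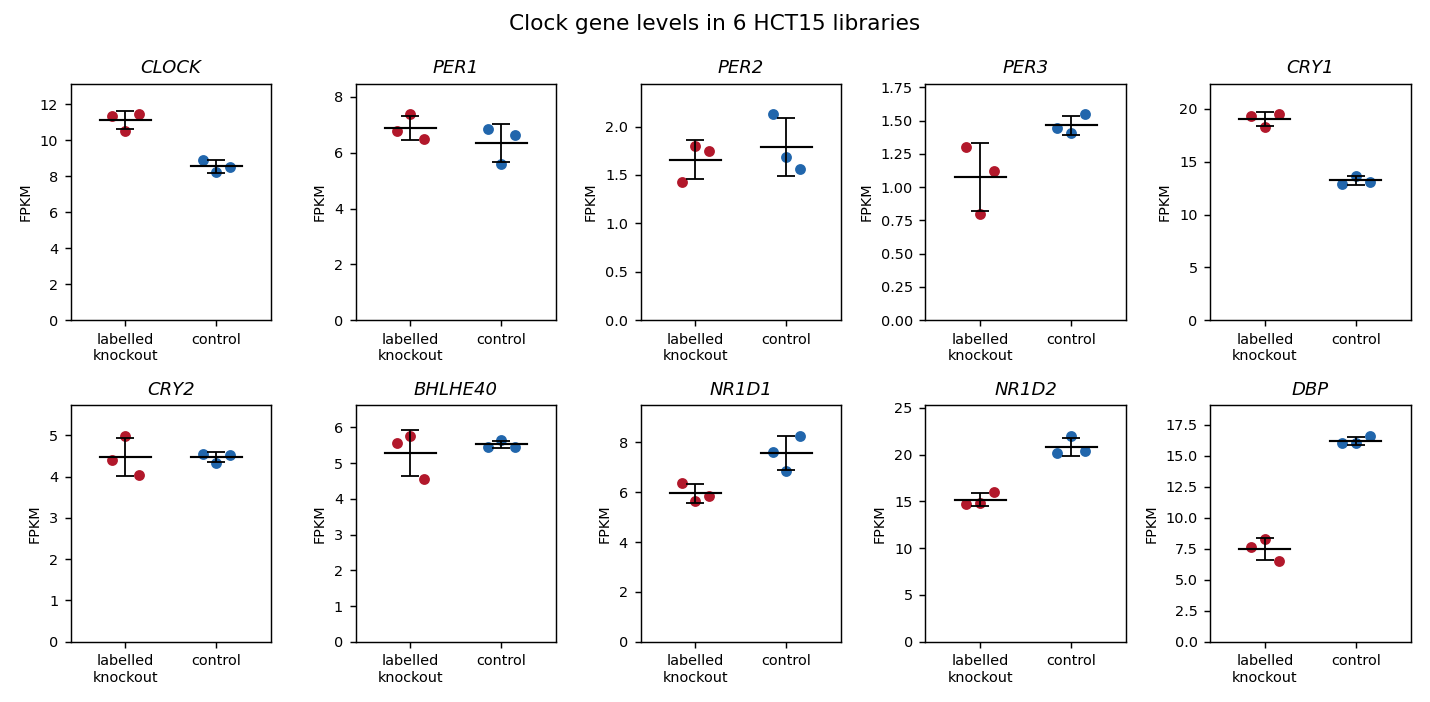
FPKM (vertical axes, each from 0) of the 10 clock genes in the 3 libraries labelled RBM15 knockout (red, left) and the 3 control libraries (blue, right); points are libraries, long bars means and whiskers 1 SD. CLOCK and CRY1 sit higher and NR1D1, NR1D2 and DBP lower in every knockout-labelled library than in any control library, as does PER3, whose difference did not pass the test.

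The levels of the 10 genes, which FPKM allows to be compared per length, spanned a range of PER3 at the bottom to CRY1 or NR1D2 at the top. In the knockout-labelled libraries the order was CRY1 (19.02 FPKM), NR1D2, CLOCK, DBP, PER1, NR1D1, BHLHE40, CRY2, PER2 and PER3 (1.07 FPKM). There the library ranges of DBP and PER1, of NR1D1 and BHLHE40, and of BHLHE40 and CRY2 overlapped. Differences between neighbours within a library were not tested. In the control libraries the order was NR1D2 (20.8 FPKM), DBP, CRY1, CLOCK, NR1D1, PER1, BHLHE40, CRY2, PER2 and PER3 (1.47 FPKM), with overlap between CLOCK and NR1D1 and between PER1 and BHLHE40. DBP took place 4 in the knockout-labelled libraries and place 2 in the control libraries, while CRY1 took place 1 in the knockout-labelled libraries and place 3 in the control libraries.

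CLOCK, which pairs with BMAL1, rose in the knockout-labelled libraries. It stood at 11.4, 10.5 and 11.4 FPKM in the knockout-labelled libraries, against 8.91, 8.21 and 8.49 FPKM in the control libraries. Every knockout-labelled library lay above every control library. The ratio of means was 1.3 and the log2 difference 0.34 (SE 0.053, limma adjusted p = 0.00155). CLOCK (ENSG00000134852) occupies 55427903 to 55547138 of chromosome 4 (minus strand, GENCODE 29 on GRCh38), and 76 bp of its exons overlap those of TMEM165 on the opposite strand. Of the 10 genes, 8 share some exon bases with another annotated gene, and CRY2 and NR1D2 share none.

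Of its partners and paralog, BMAL2 passed the test and BMAL1 and NPAS2 did not. BMAL1 stood at 5.62, 4.5 and 5.09 FPKM in the knockout-labelled libraries and at 5.65, 5.66 and 4.77 FPKM in the control libraries, and the groups overlapped (log2 difference -0.07, 95% interval -0.28 to 0.15, limma adjusted p = 0.558). NPAS2, the paralog that can stand in for CLOCK, averaged 2.93 ± 0.238 FPKM in the knockout-labelled libraries and 3.45 ± 0.259 FPKM in the control libraries, with a log2 difference of -0.18 (limma adjusted p = 0.0890). BMAL2, the paralog of BMAL1, rose, at 20.04, 18.9 and 15 FPKM in the knockout-labelled libraries against 13.8, 11.8 and 13.9 FPKM in the control libraries (log2 difference 0.42, limma adjusted p = 0.0168). That call was lost in 3 of 14 alternatives, without knockout-labelled library 1, knockout-labelled library 2 or control library 2, with a highest adjusted p of 0.0537. No test compared the differences of these partners with that of CLOCK.

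None of the 3 PER genes, whose proteins are the inhibitory arm of the loop together with the CRY proteins, passed the test. PER1, which also responds to serum, glucocorticoid and cyclic AMP signals, stood at 6.79, 7.37 and 6.50 FPKM in the knockout-labelled libraries and at 6.85, 5.59 and 6.65 FPKM in the control libraries. The groups overlapped, with a log2 difference of 0.10 (95% interval -0.09 to 0.30, limma adjusted p = 0.324). PER2, the PER protein most closely tied to rhythm in mice, stood at 1.43, 1.80 and 1.74 FPKM in the knockout-labelled libraries, and at 2.12, 1.68 and 1.56 FPKM in the control libraries. Its log2 difference was -0.07 (95% interval -0.32 to 0.18, limma adjusted p = 0.621), an interval that still allows changes of either sign.

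PER3, the least abundant of the 10 genes, stood at 1.30, 0.797 and 1.12 FPKM in the knockout-labelled libraries, against 1.44, 1.41 and 1.55 FPKM in the control libraries. The groups did not overlap, though the spread among the knockout-labelled libraries was wide and the log2 difference of -0.26 (SE 0.11, 95% interval -0.52 to 0.002) missed the threshold (limma adjusted p = 0.0849). Without knockout-labelled library 1 it passed, at -0.34 (limma adjusted p = 0.0460). At about 1 FPKM the pseudocount of 1 shrinks differences, and with a pseudocount of 0.1 the log2 difference was -0.44 without passing (limma adjusted p = 0.0989). Exons of PER3 share 868 bp with UTS2 and 482 bp with Z98884.1, both on the opposite strand, and neither was analysed here.

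Of the cryptochrome genes, CRY1 rose and CRY2 did not pass the test. CRY1, the repressor that acts late in the cycle, stood at 19.3, 18.3 and 19.5 FPKM in the knockout-labelled libraries, against 12.9, 13.7 and 13.1 FPKM in the control libraries. The groups were well apart, with a ratio of means of 1.44 and a log2 difference of 0.49 (SE 0.044, limma adjusted p = 0.000157). CRY1 (ENSG00000008405) lies on the minus strand of chromosome 12 at 106991364 to 107093829. CRY2, its paralog, stood at 4.41, 4.98 and 4.05 FPKM in the knockout-labelled libraries and at 4.54, 4.33 and 4.53 FPKM in the control libraries. Its groups overlapped and the log2 difference was -0.001 (95% interval -0.18 to 0.18, limma adjusted p = 0.992).

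The ratio within a library, which does not depend on how libraries are scaled, was computed for 3 paralog pairs. CRY1 was 4.26 times as abundant as CRY2 in the knockout-labelled libraries and 2.96 times in the control libraries (geometric means). The log2 ratio of CRY1 over CRY2 was 2.13, 1.88 and 2.27 in the knockout-labelled libraries, against 1.502, 1.66 and 1.54 in the control libraries. All 3 knockout-labelled libraries exceeded all control libraries, and the difference of 0.53 gave p = 0.1 in the exact 2-sided permutation test over 20 assignments, the smallest it can give with 3 against 3. PER1 over PER2 differed by 0.22 on the log2 scale (exact permutation p = 0.3). NR1D1 over NR1D2 differed by 0.11 (exact permutation p = 0.5), and for these 2 pairs the groups overlapped. Adjusted over the 3 pairs by Benjamini-Hochberg, the exact permutation p-values were 0.3 for CRY1 over CRY2, 0.45 for PER1 over PER2 and 0.5 for NR1D1 over NR1D2, and none could pass 0.05 in this design.

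**Figure D2:**
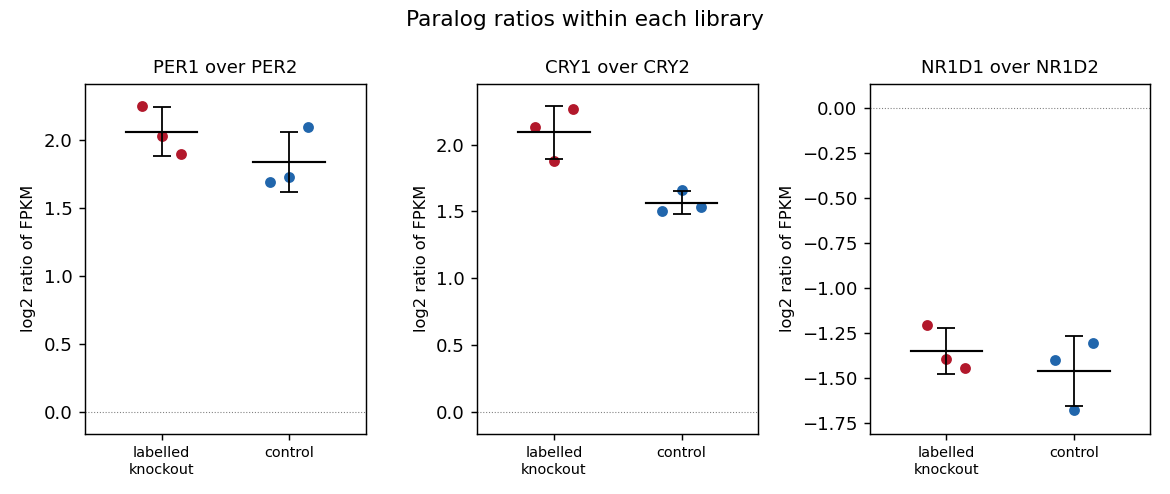
Log2 ratio of FPKM (vertical axes, dotted line at 0 for equal levels) for 3 pairs of related clock genes in each library labelled RBM15 knockout (red, left) and each control library (blue, right), with means and 1 SD. The ratio of CRY1 over CRY2 is at least 1.88 in the knockout-labelled libraries and at most 1.66 in the control libraries, while the other pairs overlap.

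Both REV-ERB receptor genes fell. NR1D2 (REV-ERB beta) stood at 14.7, 14.8 and 16 FPKM in the knockout-labelled libraries, against 20.1, 22 and 20.4 FPKM in the control libraries. Without overlap between the groups, the ratio of means was 0.728 and the log2 difference -0.43 (SE 0.051, limma adjusted p = 0.000511). NR1D2 (ENSG00000174738) occupies 23945260 to 23980618 of chromosome 3 on the plus strand. NR1D1 (REV-ERB alpha) stood at 6.37, 5.64 and 5.85 FPKM in the knockout-labelled libraries, against 7.63, 6.87 and 8.24 FPKM in the control libraries. Its groups were also apart, by -0.30 on the log2 scale (SE 0.075, limma adjusted p = 0.0130). Over 14 alternatives the adjusted p reached at most 0.0419.

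NR1D1 (ENSG00000126368; minus strand of chromosome 17, 40092787 to 40100725) shares 263 of its 2772 exon bases with THRA, the thyroid hormone receptor gene on the opposite strand. THRA also fell, at 8.12 ± 0.599 FPKM in the knockout-labelled libraries against 10.9 ± 0.316 FPKM in the control libraries (log2 difference -0.39, limma adjusted p = 0.00154). With the use of strand not given in the sources used here, the part of shared reads in these differences was not tested. RORA, whose product activates through the sites that NR1D1 and NR1D2 occupy, rose, at 3.88, 4.05 and 4.58 FPKM in the knockout-labelled libraries against 3.37, 3.46 and 3.45 FPKM in the control libraries. Its log2 difference was 0.22 (limma adjusted p = 0.0307), and the call was lost in 6 of 13 alternatives, with a replicate block and on leaving out any library other than knockout-labelled library 1 (highest adjusted p 0.0809).

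BHLHE40 (DEC1), an E-box repressor that is also induced by hypoxia and growth signals, stood at 5.56, 5.75 and 4.56 FPKM in the knockout-labelled libraries and at 5.46, 5.65 and 5.46 FPKM in the control libraries. The groups overlapped (log2 difference -0.06, 95% interval -0.25 to 0.14, limma adjusted p = 0.577). Its paralog BHLHE41 was below the filter, at 0.403 ± 0.0969 FPKM in the knockout-labelled libraries and 0.303 ± 0.0651 FPKM in the control libraries. CIPC, an inhibitor of CLOCK, averaged 8.09 ± 0.749 FPKM in the knockout-labelled libraries and 6.87 ± 0.364 FPKM in the control libraries, a rise of 0.21 on the log2 scale (limma adjusted p = 0.0493) that was lost in 6 of 14 alternatives, among them each omission of a library other than knockout-labelled library 1. NFIL3, which represses through the same D-boxes that DBP activates, and TIMELESS, named for the fly clock gene but in human cells a replication fork protein, did not pass, with log2 differences of 0.10 and 0.08 (limma adjusted p = 0.283 for NFIL3 and 0.241 for TIMELESS).

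DBP, the D-box activator of clock output genes, had the largest difference of the 10. It stood at 7.67, 8.26 and 6.52 FPKM in the knockout-labelled libraries, against 16, 16.1 and 16.6 FPKM in the control libraries. The highest knockout-labelled library lay far below the lowest control library. The ratio of means was 0.462 and the log2 difference -1.02 (SE 0.078, limma adjusted p = 8.18e-05), with a range of -1.11 to -0.94 over 14 alternatives. DBP ranked 149 from the bottom among 11451 genes by log2 difference, and 1.41% of all genes were lower by 1 or more on that scale.

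DBP (ENSG00000105516) lies on the minus strand of chromosome 19 at 48630030 to 48637438, and 661 of its 6544 exon bases overlap those of SPHK2, the sphingosine kinase gene on the opposite strand. SPHK2 fell as well, with 7.53 ± 0.904 FPKM in the knockout-labelled libraries against 12 ± 0.706 FPKM in the control libraries (log2 difference -0.61, limma adjusted p = 0.000987). The part of reads shared between DBP and SPHK2 was not tested. TEF, the PAR bZIP paralog of DBP on another chromosome, fell too. It stood at 3.58, 3.50 and 3.47 FPKM in the knockout-labelled libraries, against 5.80, 5.77 and 5.63 FPKM in the control libraries (log2 difference -0.58, limma adjusted p = 0.000151). HLF, the other paralog, was below the filter, at 0.237 ± 0.0689 FPKM in the knockout-labelled libraries and 0.148 ± 0.0398 FPKM in the control libraries.

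By pattern over the 6 libraries, the genes nearest to DBP were SOX9, KCNQ1 and EGR1, with Euclidean distances of 0.147, 0.152 and 0.155 between gene-centred log2(FPKM + 1) values. SOX9, a transcription factor of intestinal crypts, averaged 27.7 ± 1.76 FPKM in the knockout-labelled libraries and 57.9 ± 1.48 FPKM in the control libraries. With 2 groups of 3, genes with a group difference of like size lie near each other by this measure.

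**Figure D3:**
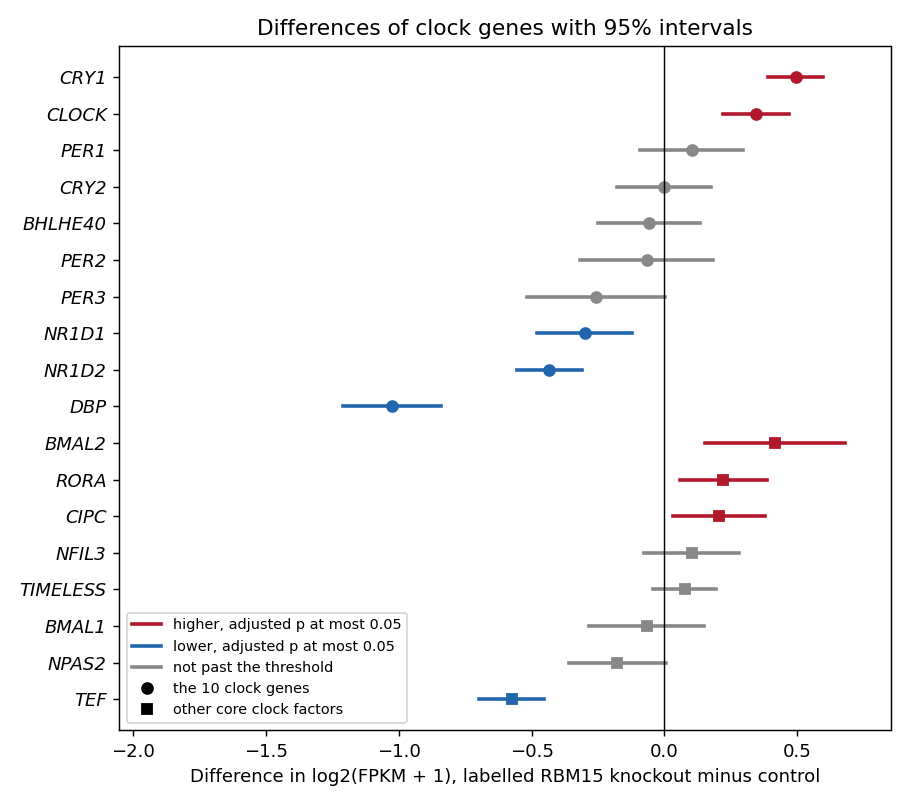
Difference in log2(FPKM + 1), libraries labelled RBM15 knockout minus control libraries, with 95% intervals from limma. Circles are the 10 clock genes. Squares are 8 other listed genes, named other core clock factors in the legend though TIMELESS is among them. Red and blue passed the threshold as higher and lower, grey did not. CRY1 at 0.49 and DBP at -1.02 mark the ends, and the intervals of PER1, PER2, PER3, CRY2 and BHLHE40 include 0.

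Placed among all genes tested, the clock genes were spread over most of the ranks, though not over the full range of differences. CRY1 lay at the 95.8th percentile of log2 differences and CLOCK at the 89.4th. PER1 was at the 65.8th, CRY2 at the 52.4th, BHLHE40 at the 44.8th and PER2 at the 43.7th percentile, close to the middle of all genes. PER3 lay at the 23.5th, NR1D1 at the 19.8th, NR1D2 at the 12.4th and DBP at the 1.3rd percentile.

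**Figure D4:**
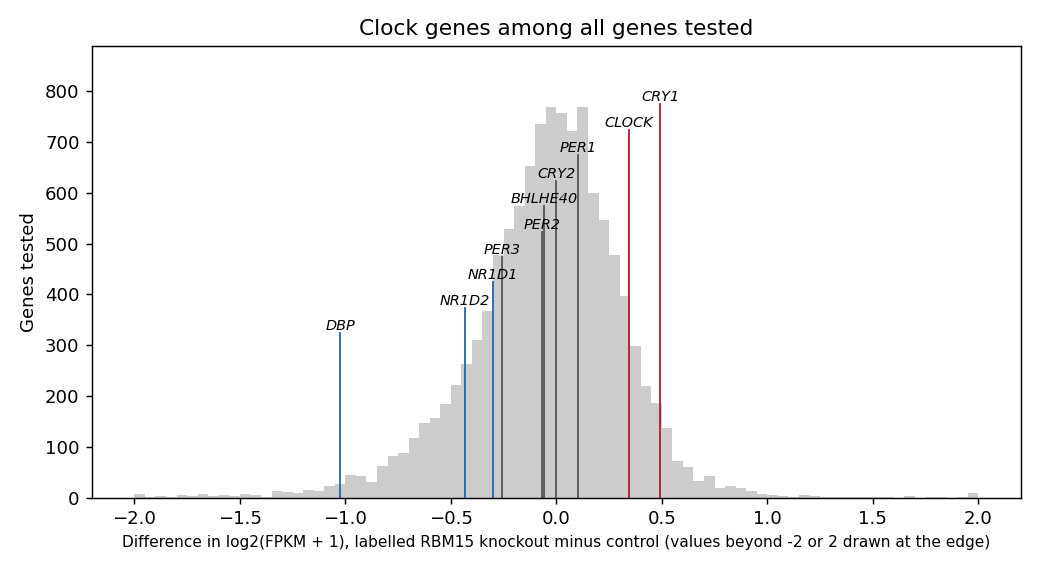
Histogram of the difference in log2(FPKM + 1), libraries labelled RBM15 knockout minus control libraries, over 11451 genes tested (grey, vertical axis in genes), with the 10 clock genes as lines; line height only spaces the names. DBP at -1.02 lies in the lower tail, and CLOCK and CRY1, at 0.34 and 0.49, lie in the upper part.

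Enzymes that mark the clock proteins for stability were mixed. Of 19 tested kinases, phosphatases and ubiquitin ligases, 6 rose and 2 fell, 42.1% against 54.5% of all genes, of which 25.3% rose and 29.2% fell. Their median log2 difference was 0.11, beside -0.02 over all genes tested. DYRK1A, a kinase that phosphorylates CRY2 in mice, stood at 12.1, 8.89 and 9.46 FPKM in the knockout-labelled libraries, against 6.69, 6.19 and 7.29 FPKM in the control libraries (log2 difference 0.52, limma adjusted p = 0.00658). FBXW7, a ubiquitin ligase subunit, rose by 0.34, the deubiquitinase gene USP7 by 0.32 and FBXW11, which marks PER proteins for destruction, by 0.26. The other changed genes were PPP1CC and CSNK2B, which rose, and SIAH2 and CSNK1D, which fell. The calls of CSNK2B, SIAH2 and CSNK1D were lost in 7, 4 and 9 of 14 alternatives. CSNK1E, one of the casein kinases that phosphorylate PER proteins, averaged 58.3 ± 1.64 FPKM in the knockout-labelled libraries and 59.03 ± 0.856 FPKM in the control libraries (limma adjusted p = 0.679).

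Output genes that the clock is known to drive in some tissues went in both directions. Of 13 tested, 6 rose and 3 fell, that is 69.2% changed beside 54.5% of all genes tested, of which 25.3% rose and 29.2% fell. Their median log2 difference was 0.05, beside -0.02 over all genes tested. TSC22D3, which also answers to glucocorticoids, stood at 7.23, 5.65 and 7.14 FPKM in the knockout-labelled libraries, against 28.6, 26.3 and 28.4 FPKM in the control libraries (log2 difference -1.91, limma adjusted p = 1.25e-05). NOCT, which encodes the rhythmic enzyme nocturnin, rose, at 8.28, 7.05 and 6.97 FPKM in the knockout-labelled libraries against 3.51, 3.56 and 3.06 FPKM in the control libraries (log2 difference 0.94, limma adjusted p = 0.000141). INSIG2 fell by 0.37 on the log2 scale, a call lost without knockout-labelled library 1, control library 1 or control library 3. The cell cycle kinase gene WEE1, KLF10, PPARD and NAMPT, the rate-limiting enzyme of NAD salvage, also rose, and LPIN1 fell.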

How the data were processed

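RNA of 6 HCT15 libraries was sequenced as paired-end reads of 150 bp, per the labels' protocols. The submitters' processing notes name HISAT2 2.2.1, StringTie 2.0.4 and the build hg38. The authors deposited 1 table of FPKM, per the file headers. Annotation, use of strand and any row filter: not given in the sources used here. Columns were matched to libraries by name, with 0 value columns unused, and groups were taken from titles.

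FPKM are not counts, so limma 3.58.1 (R 4.3.3) was run on log2(FPKM + 1) for genes that averaged 1 FPKM or more, with a variance trend and no covariates. P-values are 2-sided and adjusted (Benjamini-Hochberg) across every gene tested, and 0.05 was the threshold. This scale understates changes of low genes. The fit was tested on simulated data. Paralog ratios were tested by exact permutation. Positions and exon overlaps are from GENCODE 29 and promoter sequences from RefSeq on GRCh38.p14; the files hold no coordinates.

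The 10 genes, the 6 other clock lists and the marker lists were chosen with earlier results of these data known. All 10 genes are named; of each other list, changed genes are named, with values for up to 4 with the largest difference, and for DBP the 3 nearest genes. Some genes counted in these lists are not reported here by name. Abundant or central genes without a call (BMAL1, NPAS2, NFIL3, TIMELESS, CSNK1E, BHLHE41, HLF), exon-sharing neighbours and marker genes were added after their values were seen. The 14 alternatives were omission of each library in turn, a block for replicate number, a flat variance prior, quantile normalization, centring on the median, TPM in place of FPKM, filters at 5 FPKM or none, and 0.1 as pseudocount. Python 3.11.15 with pandas 2.3.3 made the tables, and matplotlib 3.10.9 the figures.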

Additional observations from a re-analysis of the deposited data

How the results depend on the processing

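In 14 alternatives, each of the calls of CLOCK, CRY1, NR1D1, NR1D2 and DBP kept its direction and its side of the threshold. The count of changed clock genes, 5 of 10, stayed within 1.5 times, as did the 38 of 65 other clock pathway genes, for which it ran from 30 to 39. These counts are 50% and 58.5%, beside 54.5% of all genes tested. Over the alternatives the share of all genes ran from 47.6% to 57.7%. Deviations of same-numbered libraries from their group means had correlations of -0.035, -0.037 and 0 over all genes tested. Such values cannot exclude a pairing that affects only some genes. With a replicate block 5 clock genes, 35 other clock pathway genes and 50.5% of all genes tested changed. Signs turned only for genes without a call: PER2 was 0.063 under quantile normalization, CRY2 was 0.097 under the same normalization, 0.027 after median centring and 0.021 as TPM, and BHLHE40 was 0.008 under quantile normalization. When libraries were left out in turn, PER2 ran from -0.126 to 0.018, CRY2 from -0.066 to 0.056 and BHLHE40 from -0.111 to 0.029. A filter at a mean of 5 FPKM removed PER2, PER3 and CRY2. Depth is unknown, and for PER2 and PER3, near 1 FPKM, the intervals are wide.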

Other observations

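Among 15 coregulators that act with the clock proteins, 10 rose and 1 fell, that is 73.3% changed beside 54.5% of all genes tested. Of all genes tested, 25.3% rose and 29.2% fell. The median log2 difference of the 15 was 0.18, beside -0.02 over all genes tested. KDM5A, a histone demethylase gene, stood at 6.44, 7.13 and 7.09 FPKM in the knockout-labelled libraries, against 5.46, 5.27 and 5.22 FPKM in the control libraries (log2 difference 0.32, limma adjusted p = 0.00293). The acetyltransferase gene CREBBP rose by 0.27 and the arginine methyltransferase gene PRMT5 by 0.27 on the log2 scale. DDB1, SIRT1, WDR5, KDM2A, HDAC3 and NONO also rose, and RACK1 was the gene that fell. The calls of HDAC3 and NONO were lost in 7 and 8 of 14 alternatives. These coregulators act on many genes besides the clock.

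Of 10 tested genes of cyclic AMP and serum signalling, which can reset PER1, 1 rose and 5 fell. That is 60% changed beside 54.5% of all genes tested, of which 25.3% rose and 29.2% fell. The median log2 difference of the 10 was -0.18, beside -0.02 over all genes tested. The immediate early genes FOS, FOSB and EGR1 fell, with log2 differences of -2.58, -2.54 and -1.02. CRTC1, a coactivator of CREB, averaged 1.67 ± 0.0801 FPKM in the knockout-labelled libraries and 3.27 ± 0.0854 FPKM in the control libraries, and fell by 0.68 (limma adjusted p = 0.000209). ATF1 fell by 0.25, and NR4A1 rose by 0.49, a call lost without knockout-labelled library 1, knockout-labelled library 2 or control library 1. PER1 itself, as given above, had a log2 difference of 0.10 that did not pass.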
